A study of Mus musculus with 37 samples.

Results

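The presomitic mesoderm and boundary factors were 7 genes, *Tbx6*, *Msgn1*, *Mesp1*, *Mesp2*, *Ripply1*, *Ripply2* and *Pcdh8*, each matched by symbol to 1 row of a count table of 35542 genes. RNA-seq was carried out on tailbud tissue of 37 single mouse embryos, aged embryonic day 8 to 8.5 and bearing 6 to 11 somites, the blocks of mesoderm that bud off in sequence and so time the embryo. All were F1 embryos of C57BL/6 mothers and Castaneus (Cast) fathers. The 21 Smchd1wt embryos, genotype Smchd1[fl/+], carried a floxed but intact maternal allele from Smchd1 fl/fl mothers without a Cre transgene. The 16 Smchd1matΔ embryos, genotype Smchd1[del/+], came from Smchd1 del/fl mothers carrying MMTV-Cre, a transgene active in the oocyte, and so from oocytes without SMCHD1, a chromatin protein of gene silencing. The MMTV-Cre line carries some FVB genome. These embryos kept an intact paternal allele, and lack of the oocyte supply and heterozygosity of the embryo cannot be told apart in these groups. The tissue was cut a short way behind the last formed somite, and each library came from 1 embryo. Of the Smchd1wt embryos 13 were female and 8 male, and of the Smchd1matΔ embryos 11 and 5. All embryos at 6 somites were female.

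As background, the presomitic mesoderm is the unsegmented tissue between the tailbud and the youngest somite. *Tbx6*, a T-box transcription factor, and *Msgn1*, a bHLH factor downstream of Wnt signalling, mark and specify its posterior part. At its anterior end, where the next somite is set apart, *Mesp2* is switched on by TBX6 and Notch and positions the boundary, *Ripply1* and *Ripply2* then help to remove TBX6, and *Pcdh8*, also called PAPC, encodes a protocadherin that acts in the separation of the somite. *Mesp1* is the neighbour and relative of *Mesp2* and is also a marker of nascent mesoderm leaving the primitive streak, including cardiac progenitors.

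The members lie on 5 chromosomes in GRCm38, the build of the deposited coordinates. *Tbx6* spans positions 126781483 to 126785560 of chromosome 7 (plus strand). *Mesp1* (79792241 to 79793788, minus strand) and *Mesp2* (79810727 to 79813439, plus strand) lie head to head on the same chromosome with 16939 bases between their starts. *Msgn1*, a gene with 1 exon, spans 11208360 to 11208972 of chromosome 12 (minus strand), *Pcdh8* spans 79766775 to 79771312 of chromosome 14 (minus strand), *Ripply1* spans 139779549 to 139782353 of chromosome X (minus strand) and *Ripply2* spans 87015537 to 87019917 of chromosome 9 (plus strand). *Pcdh8* alone is overlapped by another annotated gene, the antisense *Gm9748*, which had 0 counts in 32 of 37 embryos and at most 6.

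The sequences upstream of *Tbx6* and *Msgn1* are shown because these were the abundant members and the pair whose levels moved together from embryo to embryo. They come from RefSeq (GRCm38.p6), end at the annotated start of each gene, and are written along the strand of the gene. *Tbx6* is at chr7:126781233-126781482 (plus strand) and *Msgn1* at chr12:11208973-11209198 (minus strand), and capitals mark matches to the motifs searched:
Tbx6: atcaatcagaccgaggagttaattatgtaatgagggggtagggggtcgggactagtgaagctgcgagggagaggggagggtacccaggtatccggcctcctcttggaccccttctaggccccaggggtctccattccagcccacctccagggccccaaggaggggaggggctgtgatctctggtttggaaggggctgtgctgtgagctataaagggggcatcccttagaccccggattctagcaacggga
Msgn1: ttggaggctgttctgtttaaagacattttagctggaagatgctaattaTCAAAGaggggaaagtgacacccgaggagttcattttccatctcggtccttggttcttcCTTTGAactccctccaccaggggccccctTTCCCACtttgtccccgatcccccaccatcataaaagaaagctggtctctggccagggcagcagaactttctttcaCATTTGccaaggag

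All 7 members had a RefSeq promoter entry, and the 250 bases before each start were searched on both strands for a T-box core (GGTGTG), an E-box (CANNTG, the core bound by bHLH factors), an RBPJ site (GTGGGAA, bound by the Notch effector) and a TCF/LEF site (CTTTGA, bound by Wnt effectors). *Msgn1* held 2 TCF/LEF matches, 1 RBPJ match and 1 E-box match, whereas the *Tbx6* and *Pcdh8* windows held none of the motifs. TCF/LEF matches were also found at *Mesp1* (2), where 198 of the 250 bases lie inside the gene as GENCODE annotates it, and the T-box core was found at *Ripply1* and *Ripply2* (1 each). Over all 32851 RefSeq windows of that length, 13.8% held the TCF/LEF letters, 16.3% the T-box letters, 5.42% the RBPJ letters and 66.2% the E-box letters. No 2 matches at *Msgn1* overlapped. These are matches of letters, and binding was not measured.

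Library depth ran from 916444 to 80579115 counts, with a median of 12845991, so that 3 counts were worth between 0.0364 and 3.27 CPM (counts scaled to a library total of 1000000), 0.235 in the median library. *Smchd1* was below the mean of the stage-matched Smchd1wt embryos in 16 of 16 Smchd1matΔ embryos. Markers of the labelled tissue were high. All 8 tailbud genes passed the filter on low counts and summed to between 947 and 2230 CPM, while a list of formed somite genes summed to between 2.65 and 54.6 CPM with *Pax1* at 0 in every library. Smchd1matΔ replicates 1 and 2 at 6 somites stood apart, with 2.77% and 1.82% of their counts on ribosomal RNA genes against at most 1.28% elsewhere. Most fold changes and slopes of members that rest on this pair are given with and without it. The correlations were not recomputed without it.

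*Tbx6* and *Msgn1* were the abundant members, and the other 5 were near the limit of detection. In RPKM, which is CPM divided by exonic length in kb, *Msgn1* averaged 84.0 RPKM (SD 19.8, n = 37 embryos) and *Tbx6* 21.3 RPKM (SD 5.13), higher than 97.8% and 89.0% of the 25078 genes with any count. *Ripply1* (0.572), *Mesp1* (0.442), *Ripply2* (0.163), *Pcdh8* (0.129) and *Mesp2* (0.110) followed in mean RPKM. *Msgn1* was above *Tbx6* and *Tbx6* above *Ripply1* in 37 of 37 embryos, but *Ripply1* was above *Mesp1* in only 19 of 37, and the lower neighbours overlapped in the same way. *Tbx6* and *Msgn1* took 42.0% and 55.8% of all counts of the 7 members. Boundary genes were thus rare in this tissue, with *Ripply2* at 0 counts in 18 of 37 embryos, *Mesp2* in 13, *Pcdh8* in 9, *Mesp1* in 7 and *Ripply1* in 5. Fewer cells of a type and less RNA per cell cannot be told apart in such bulk tissue.

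*Tbx6* was found at a like level at every stage. In Smchd1wt embryos it ranged from 12.2 to 49.4 CPM with a median of 37.1, and in Smchd1matΔ embryos from 28.6 to 59.7 CPM with a median of 39.9. The lowest embryo by far was Smchd1wt replicate 1 at 10 somites, and the remaining embryos of both genotypes overlapped. *Msgn1* ranged from 14.3 to 65.2 CPM (median 49) in Smchd1wt and from 39.6 to 76.0 CPM (median 55.4) in Smchd1matΔ embryos, and the same embryo was again lowest. That embryo also had the lowest tailbud marker sum of all 37 (947 CPM) and the third highest sum of primitive blood markers (3800 CPM, where the 37 embryos ran from 8.72 to 4130). Its notochord and node sum was the lowest (14.9 CPM) and its gut endoderm sum ranked 2 of 37 (272 CPM). What part these play in its low values was not tested.

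**Figure D1:**
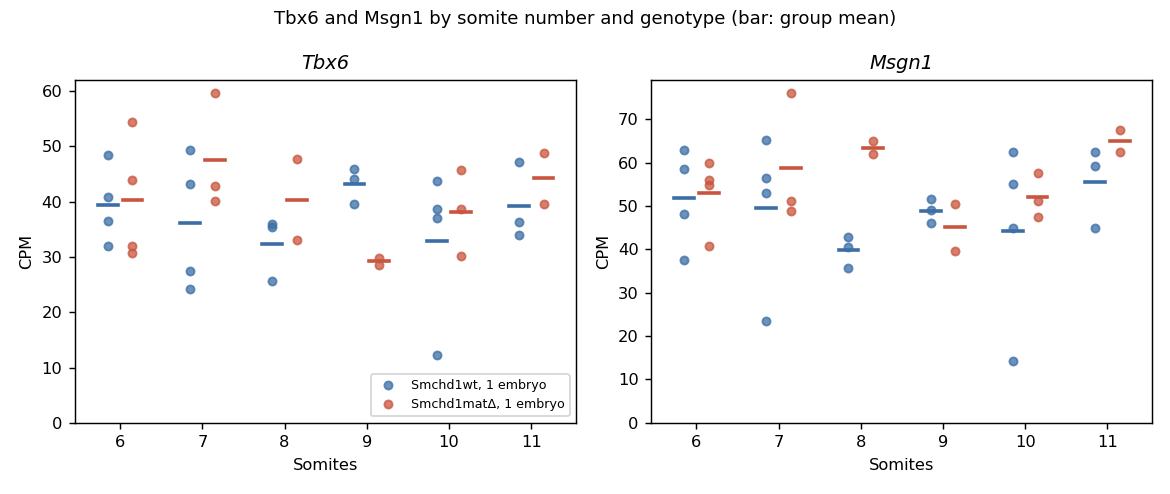
CPM of *Tbx6* (left) and *Msgn1* (right) against somite number, with a point for each embryo, a bar for each group mean and colour for genotype. Levels overlap across stages, and the low Smchd1wt point at 10 somites (12.2 CPM for *Tbx6*, 14.3 CPM for *Msgn1*) is the same embryo in both panels.

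Counts of the 5 rare members were sparse in both genotypes. *Mesp1* ranged from 0 to 1.33 CPM (median 0.506) in Smchd1wt and from 0 to 1.96 CPM (median 0.525) in Smchd1matΔ embryos. *Mesp2*, the boundary determinant, ranged from 0 to 0.656 CPM (median 0.122) and from 0 to 1.06 CPM (median 0.131), and *Ripply1* from 0 to 1.77 CPM over all 37. *Ripply2* reached 1.05 CPM, and it had 0 counts in all 5 embryos at 8 somites. Over their summed depth this allows up to 0.0453 CPM (a 95% limit) if counts varied by sampling alone. Counts of *Ripply2* over all 37 embryos varied more than that (chi-square per degree of freedom 4.99), so the limit may be too low. *Pcdh8* had the widest range, from 0 to 0.650 CPM in Smchd1wt (median 0.169) and from 0 to 8.24 CPM in Smchd1matΔ embryos (median 0.158). Its 3 highest values were those of Smchd1matΔ replicate 2 at 6 somites (113 counts), replicate 1 at 6 somites (25 counts, 3.78 CPM) and replicate 3 at 10 somites (16 counts, 1.53 CPM). The 3 highest *Ripply2* values were also in Smchd1matΔ embryos (1.05, 0.875 and 0.610 CPM, from 11, 12 and 7 counts).

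**Figure D2:**
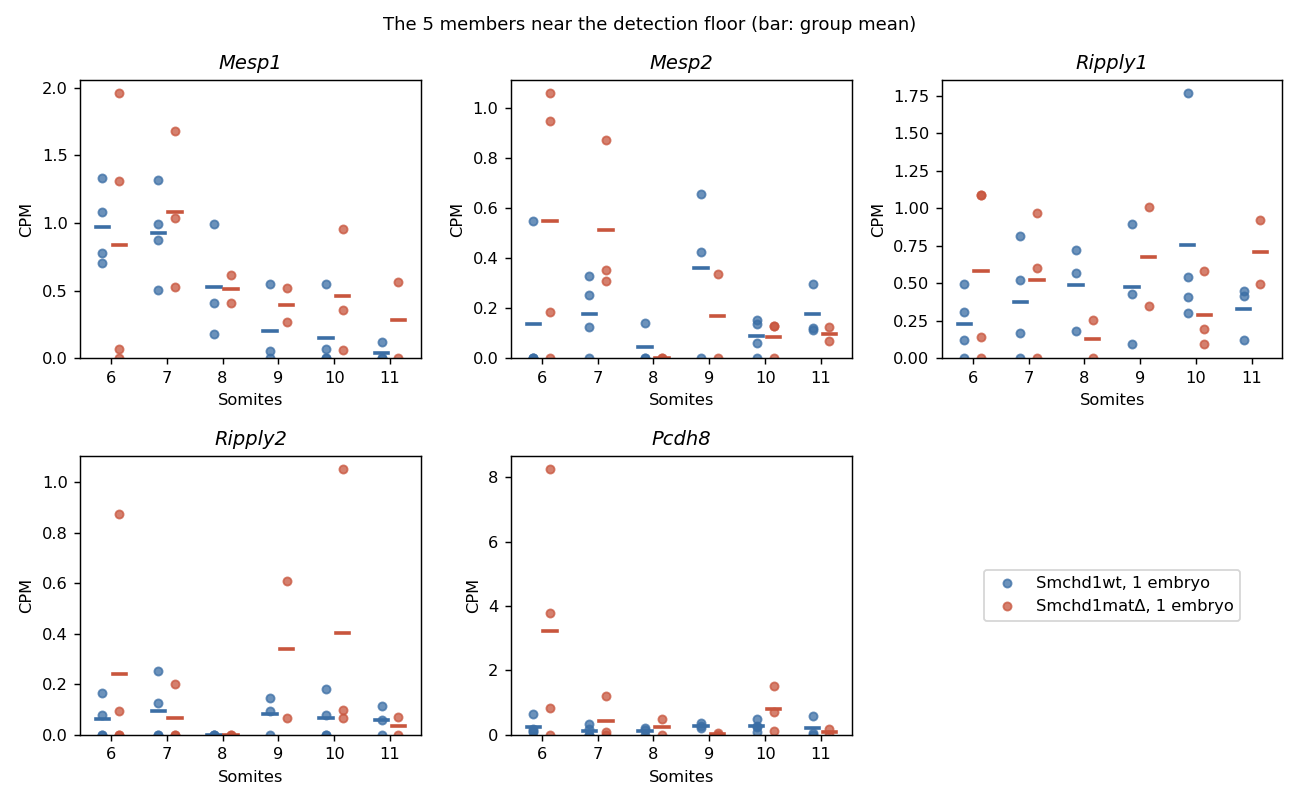
CPM of the 5 rare members against somite number, with a point for each embryo, a bar for each group mean and a separate scale in each panel. *Mesp1* falls with somite number in Smchd1wt embryos, from a median of 0.872 CPM at 6 to 8 somites to 0.0267 CPM at 9 to 11, and *Pcdh8* is highest in the pair of Smchd1matΔ embryos at 6 somites with 8.24 and 3.78 CPM.

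The first comparison asked whether the members changed as somites were added. *Mesp1* fell with somite number in Smchd1wt embryos. It ran from 0.180 to 1.33 CPM (median 0.872) in the 11 embryos with 6 to 8 somites, all with at least 2 counts, and from 0 to 0.547 CPM (median 0.0267) in the 10 embryos with 9 to 11 somites, where 5 had 0 counts. The ranges overlapped, and of the 58 counts in the later window 45 came from the deepest library, Smchd1wt replicate 1 at 9 somites (0.547 CPM). The decrease was 0.75 on the log2 scale per somite (SE 0.158, 95% interval −1.08 to −0.43, adjusted p = 0.00480 by edgeR's quasi-likelihood test with Benjamini-Hochberg adjustment). Of 15148 genes tested, 6.64% changed and 3.51% fell with somite number, and 1 of the 3 members tested did. No embryo with 9 to 11 somites exceeded 0.547 CPM, so *Mesp1* passed the filter on low counts only through those with 6 to 8. Its slope and adjusted p are thus conditioned on that direction. Without the filter it was also called. Removing any single Smchd1wt embryo left a decrease of 0.71 to 0.98 per somite with adjusted p between 5.4e-04 and 0.0125. These fits kept the same genes, and so the same condition. None of the 4 cardiac markers tested changed with somite number in these embryos. *Hbb-y*, an embryonic globin, rose as 1 of 6 primitive blood markers, and *Cdh5*, an endothelial cadherin, as 1 of 5 endothelial markers. *Sox1*, *Foxa1* and *Cyp26a1* of the other marker lists rose too, while *Trh* (−0.43), *Sox17* (−0.13) and *Nkx1-2* (−0.11) fell. The part of these changes in the *Mesp1* decrease was not tested.

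*Mesp1* in Smchd1matΔ embryos had a slope of −0.37 per somite (SE 0.189), which did not pass the threshold (adjusted p = 0.328 by edgeR, and −0.42 with 0.268 without the pair rich in ribosomal RNA). It ran from 0 to 1.96 CPM (median 0.614) in the 9 embryos with 6 to 8 somites and from 0 to 0.955 CPM (median 0.361) in the 7 with 9 to 11 somites. The slopes differed by 0.34 (SE 0.245, 95% interval −0.15 to 0.84, adjusted p = 0.9998 by edgeR), so a difference between genotypes in this decline was not shown. No gene passed by edgeR in that comparison (0 of 15978, 0.0%) and no member by DESeq2, and of the members *Pcdh8* alone had an unadjusted p under 0.05. Its difference in slope was −0.83 (95% interval −1.47 to −0.19), and −0.56 without Smchd1matΔ replicate 2 at 6 somites. *Pcdh8* passed the filter on low counts there only through Smchd1matΔ embryos, the highest being the pair rich in ribosomal RNA. This interval and its unadjusted p are thus conditioned on those values. A slope of 0 was within the interval for *Tbx6* in Smchd1wt (−0.01, 95% interval −0.11 to 0.09) and Smchd1matΔ embryos (−0.03, −0.12 to 0.06), and likewise for *Msgn1* (−0.01, −0.11 to 0.10, and 0.01, −0.06 to 0.08). *Ripply1* (0.02, −0.41 to 0.44) and *Pcdh8* (−0.57, −1.15 to 0.00, and −0.07 without the pair rich in ribosomal RNA) could be tested in Smchd1matΔ embryos alone and did not pass. None of the 5 members tested in Smchd1matΔ embryos was called by edgeR or DESeq2 or had an unadjusted p under 0.05, where 3.07% of 15477 genes were called by edgeR. With stage as a factor over all 37 embryos, none of 5 members passed (5.26% of 15978 genes did, and the unadjusted p of *Mesp1* and *Pcdh8* was under 0.05), with *Mesp1* nearest at an adjusted p of 0.0844 by edgeR.

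Genes that act around the members did change with somite number. Of 16 Notch and clock genes, 3 rose in Smchd1wt and 4 in Smchd1matΔ embryos and none fell, where of all genes 3.13% rose in Smchd1wt embryos, and 1.93% rose and 1.14% fell in Smchd1matΔ embryos. Leaving out 1 embryo moved these counts to between 2 and 6 in Smchd1wt, with 6 without replicate 1 at 10 somites, and to between 3 and 4 in Smchd1matΔ embryos. *Nrarp*, a Notch target and feedback inhibitor, rose by 0.31 per somite (SE 0.0452) in Smchd1wt and by 0.26 (SE 0.0332) in Smchd1matΔ embryos on the log2 scale, *Dkk1*, a secreted Wnt inhibitor, by 0.21 and 0.27, and *Hes1*, a Notch-responsive repressor, by 0.13 and 0.20. Of 14 upstream signals and progenitor factors, 1 rose and 1 fell in Smchd1wt embryos (*Cyp26a1*, which clears retinoic acid, by 0.20, and *Nkx1-2*, a progenitor factor, −0.11), and 3 rose and 2 fell in Smchd1matΔ embryos, and leaving out 1 embryo gave 1 to 4 and 2 to 5 calls, with the 4 without Smchd1wt replicate 1 at 10 somites and the 2 without Smchd1matΔ replicate 3 at 10 somites. Among 16 genes of the anterior presomitic mesoderm and forming somite, 9 could be tested in Smchd1wt embryos and *Foxc1*, a forkhead factor of somite formation, rose by 0.26 (SE 0.0516), whereas none of 10 passed in Smchd1matΔ embryos, a difference that was not called in any gene. *Ripply3*, a relative of the Ripply members, rose by 0.16 in Smchd1wt (adjusted p = 0.0328 by edgeR) and by 0.30 in Smchd1matΔ embryos (adjusted p = 0.0487), and of the *Pcdh8* relatives *Pcdh1* had a slope of −0.11 in Smchd1wt and *Pcdh18* of −0.14 in Smchd1matΔ embryos. Calls on this list were fragile, since leaving out 1 embryo gave 1 to 3 in place of 2 in Smchd1wt embryos, with another count in 7 of 21 cases, and 0 to 2 in place of 2 in Smchd1matΔ embryos, with another count in 15 of 16. The median slopes of the tested genes of the Notch, upstream, anterior and relative lists were 0.07, −0.03, 0.05 and −0.06 in Smchd1wt and 0.03, 0.02, −0.01 and 0.00 in Smchd1matΔ embryos, where the median over all genes was 0.00 in both.

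The second comparison asked whether loss of maternal SMCHD1 altered the members. No member passed the threshold in any genotype comparison. Over all stages, 0 of 5 members tested were called by edgeR and 0 by DESeq2 (2 of 15978 genes, 0.0125%, were called by edgeR), and 1 member, *Pcdh8*, had an unadjusted p under 0.05. *Mesp2* and *Ripply2* did not pass the filter on low counts there, and *Ripply2* passed in no comparison. The log2 fold change of Smchd1matΔ over Smchd1wt embryos was 0.10 for *Tbx6* (95% interval −0.15 to 0.35, adjusted p = 0.940 by edgeR) and 0.19 for *Msgn1* (−0.05 to 0.43, adjusted p = 0.877). *Mesp1* (0.53, −0.35 to 1.41) and *Ripply1* (0.03, −0.87 to 0.94) were known less closely, and the median over all genes tested was 0.00. Leaving out 1 embryo moved *Tbx6* between 0.05, without Smchd1wt replicate 1 at 10 somites, and 0.14, and *Mesp1* between 0.30, without Smchd1matΔ replicate 1 at 11 somites, and 0.71.

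Of the members tested for genotype, *Pcdh8* had the greatest fold change. It passed the filter on low counts only through Smchd1matΔ embryos. No Smchd1wt embryo exceeded 0.650 CPM, and *Pcdh8* could not be tested in Smchd1wt embryos alone. Its fold changes and unadjusted p are thus conditioned on that direction. The fold change was 1.40 when all stages were fitted together (SE 0.634, adjusted p = 0.867 by edgeR). In the window of 6 to 8 somites it reached 2.62 (95% interval 0.79 to 4.45, adjusted p = 0.485 by edgeR). There the mean was 1.63 CPM (SD 2.75, n = 9) in Smchd1matΔ and 0.171 CPM (SD 0.190, n = 11) in Smchd1wt embryos, and 3 embryos of each genotype had 0 counts. Without the pair rich in ribosomal RNA the fold change was 1.12 (adjusted p = 0.804) at 6 to 8 somites and 0.65 (SE 0.571) over all stages. Among females alone, who include this pair, it was 2.46 over all stages. The same pair, and the third embryo high in *Pcdh8*, had the 3 highest sums of the formed somite markers (54.6, 16.2 and 15.7 CPM, where Smchd1wt embryos ran from 2.65 to 11.9). These sums were mostly *Meox1* (39.0, 12.7 and 11.1 CPM). In this list of 8, 5 genes passed the filter, *Pax1* and *Uncx* had a median of 0 over the 37 embryos, and *Myf5* had 0 counts in the pair. Replicate 1 of the pair also had the highest sum of neural tube markers (44.6 CPM) and replicate 2 the highest of cardiac markers (10.6 CPM), both ranked 5 or 6 in gut endoderm markers (240 and 241 CPM), and their tailbud sums (1610 and 1390 CPM) ranked 29 and 35 of 37. The embryo with 113 *Pcdh8* counts also had the highest value of *Meox1*, a somite homeobox gene (39.0 CPM, median 3.16), of *Tcf15*, a factor of somite epithelium (7.07 CPM, median 0.497), and of *Cer1*, which is expressed at the forming somite (12.9 CPM, with 0 counts in 30 embryos), genes picked after their values were seen. Their part in the *Pcdh8* difference was not tested.

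At 6 to 8 somites none of the 6 members tested was called by edgeR (0.00639% of 15652 genes were, and *Pcdh8* was the 1 member with an unadjusted p under 0.05). DESeq2 gave an adjusted p for *Tbx6* and *Msgn1* alone there and called neither. *Mesp2* had a fold change of 1.44 (95% interval −0.15 to 3.03, adjusted p = 0.666 by edgeR) and of 0.68 without the pair, *Tbx6* of 0.27 (−0.02 to 0.56) and *Msgn1* of 0.24 (−0.07 to 0.54). Without the pair *Tbx6* was 0.41 (SE 0.132, adjusted p = 0.490 by edgeR) and *Msgn1* 0.32 (adjusted p = 0.659). The 3 highest *Mesp2* values were in Smchd1matΔ embryos, at 6 somites replicates 1 and 2 (1.06 and 0.948 CPM) and at 7 somites replicate 3 (0.872 CPM). Smchd1wt embryos with 6 to 8 somites reached at most 0.548 CPM, so *Mesp2* too passed the filter only through Smchd1matΔ embryos. At 9 to 11 somites none of 3 members was called by either tool and none had an unadjusted p under 0.05 (0.00635% of 15757 genes were called), and *Tbx6* had a fold change of 0.01, *Msgn1* of 0.19 and *Ripply1* of −0.02. The *Msgn1* value ran from 0.03 without Smchd1wt replicate 1 at 10 somites to 0.32 without Smchd1wt replicate 1 at 9 somites. Of 54 genes on the 4 lists around the members, 47, 46 and 47 were tested over all stages, at 6 to 8 and at 9 to 11 somites, and none was called by edgeR, with an unadjusted p under 0.05 for 8, 13 and 5, nor by DESeq2 where it gave an adjusted p. Without the filter on low counts 1 Notch and clock gene and 3 anterior genes were called at 6 to 8 somites. Sex, a term of the model, gave no call and no unadjusted p under 0.05 among 5 members (0.219% of genes were called), and X-linked *Ripply1* had a male over female log2 fold change of 0.47 (95% interval −0.50 to 1.43).

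**Figure D3:**
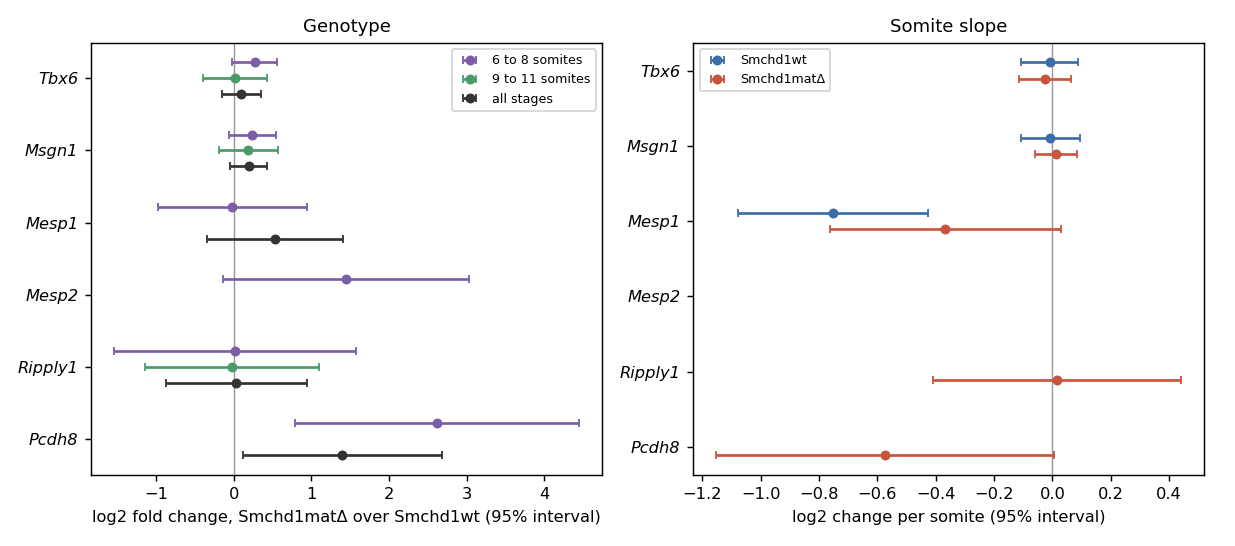
Log2 fold change of Smchd1matΔ over Smchd1wt embryos (left) and log2 change per somite (right) for the members that could be tested, as points with 95% intervals from edgeR. The *Mesp1* slope in Smchd1wt embryos (−0.75) is the call, and the *Pcdh8* intervals on the left (from 0.79 and 0.11 upwards) lie above 0 before adjustment. *Pcdh8* passed the filter on low counts only through Smchd1matΔ embryos, and *Mesp1* on the right in Smchd1wt only through the earlier stages.

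Stage by stage, no member was called by edgeR in 15 tests, nor by DESeq2 where it gave an adjusted p, with an unadjusted p under 0.05 in 2 (0.0% of genes were called by edgeR at each of the 6 stages). These fits had no sex term. At 8 and 9 somites all Smchd1matΔ embryos were female, while 2 of 3 Smchd1wt embryos at 8 somites and 1 of 3 at 9 were male. Groups did not overlap in 4 cases. At 8 somites *Msgn1* was at 64.9 and 61.9 CPM in Smchd1matΔ and at 42.9, 40.6 and 35.7 CPM in Smchd1wt embryos, with all of the former higher (log2 fold change 0.67, SE 0.15, adjusted p = 0.999 by edgeR). Without the filter on low counts its adjusted p was 0.0352, the only call of a member for genotype under any setting tried. At 9 somites *Tbx6* was at 29.8 and 28.6 CPM in Smchd1matΔ and at 45.9, 39.5 and 44.1 CPM in Smchd1wt embryos, with all of the former lower (−0.57, SE 0.154, adjusted p = 0.9998). *Pcdh8* at 9 somites (lower in Smchd1matΔ, with 1 and 0 counts against 30, 3 and 4) and *Ripply1* at 11 somites (higher) were the others. With groups this small, 16.3% of genes at 8 somites, 13.1% at 9 and 26.3% at 11 were likewise without overlap. No member was so at 6, 7 or 10 somites, where 3.33%, 5.65% and 2.01% of genes were. The mean of Smchd1matΔ embryos was higher at 5 of 6 stages for *Tbx6* and for *Msgn1*, and lower at 9 somites for both.

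Within groups of the same genotype and stage, *Tbx6* and *Msgn1* had a high SD, in part through 2 low Smchd1wt embryos. Around the 12 group means the SD was 0.42 log2 units for *Tbx6* and 0.45 for *Msgn1* (25 degrees of freedom), higher than in 97.4% of 2372 and 98.5% of 2454 genes of like level, where the median SD was 0.21 and 0.20. The SD of *Tbx6* was 0.48 in Smchd1wt and 0.32 in Smchd1matΔ embryos, and that of *Msgn1* 0.56 and 0.23, a difference that was not tested. Farthest out in both genes were Smchd1wt replicate 2 at 7 somites and replicate 1 at 10 somites (*Msgn1* at 23.5 and 14.3 CPM). Without the 2 shallowest libraries, which include the former, the SD was 0.405 for *Tbx6* and 0.409 for *Msgn1*. The SDs and their ranks were not recomputed without both of these low embryos. *Pcdh8* (SD 1.32), *Ripply1* (1.11) and *Mesp1* (1.07) were above the median of genes of like level, *Mesp2* (0.92) and *Ripply2* (0.83) below it.

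The spread of *Tbx6* and *Msgn1* was shared. After the group means were subtracted, their log2 CPM correlated over the 37 embryos with Pearson's r = 0.813 (permutation p = 1.5e-04, adjusted p = 0.0104 over 77 relations) and Spearman's rho = 0.674 (adjusted permutation p = 0.0115). Without the 2 embryos farthest out, Smchd1wt replicate 2 at 7 somites and replicate 1 at 10 somites, r was 0.653 (permutation p = 0.00242). It was 0.865 among Smchd1wt and 0.611 among Smchd1matΔ embryos. The ratio of *Msgn1* to *Tbx6* counts stayed between 0.973 and 2.05 (median 1.27), and *Msgn1* had more counts in 36 of 37 embryos. None of the other 20 pairs of members passed.

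With genes of the clock and the somite, 3 of 49 relations passed. *Tbx6* correlated with *Hes7*, an oscillating repressor of the segmentation clock (r = 0.548, rho = 0.628, adjusted permutation p = 0.0136, and r = 0.612 without the 2 farthest embryos). *Msgn1* correlated with *Axin2*, a Wnt target (r = 0.771, rho = 0.630, adjusted permutation p = 0.0104, and r = 0.575 without the 2 farthest). Without the 2 shallowest libraries r was 0.769 and the adjusted permutation p 0.0873. *Pcdh8* correlated with *Meox1* (r = 0.740, adjusted permutation p = 0.0335), but rho was 0.516 (adjusted permutation p = 0.122) and r was 0.482 without Smchd1matΔ replicates 2 and 3 at 6 somites, the latter the shallowest library with 0 counts of both genes. The r was 0.187 among Smchd1wt embryos against 0.861 among Smchd1matΔ embryos. It was not recomputed without the pair rich in ribosomal RNA, which had the highest CPM of both genes. None of the 7 relations with library depth passed after adjustment.

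**Figure D4:**
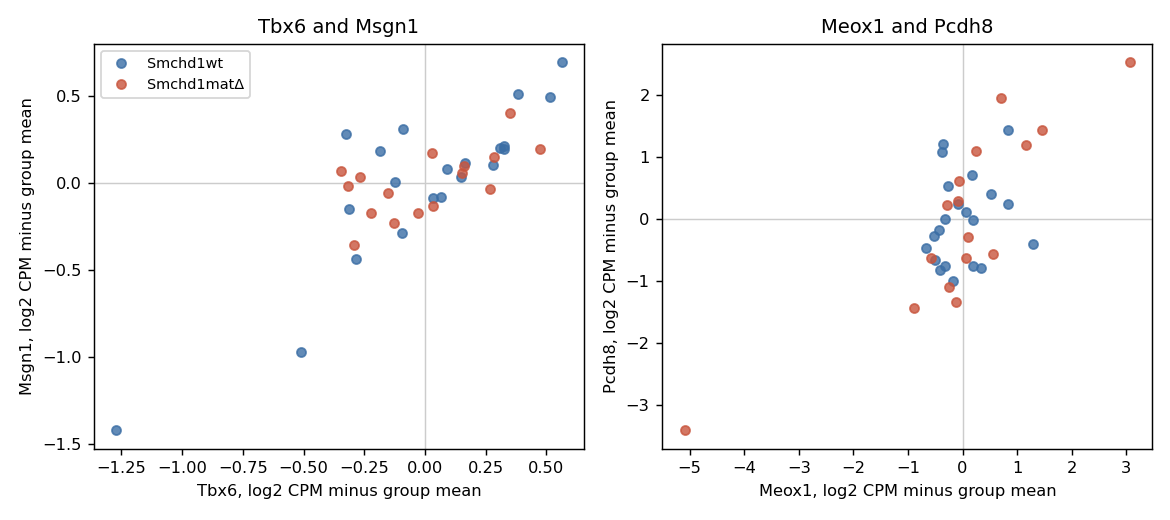
Log2 CPM minus the group mean in each of the 37 embryos, with *Tbx6* on the horizontal and *Msgn1* on the vertical axis (left, r = 0.813), and *Meox1* and *Pcdh8* likewise (right, r = 0.740), coloured by genotype. The points at the lower left of the left panel are the pair of Smchd1wt embryos without which r is 0.653, and the extreme points of the right panel are Smchd1matΔ embryos at 6 somites.

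Across the 16728 other genes that passed the filter, the genes nearest to *Tbx6* in this centred pattern over 37 embryos were *Rftn1* (r = 0.876), *Dpysl5* (0.869) and *Dll3*, a Notch pathway gene of the presomitic mesoderm (0.863), and *Msgn1* ranked 20th. Nearest to *Msgn1* were *Sh3bp1* (0.859), *4930474H06Rik* (0.852) and *Dact1*, a modulator of Wnt signalling (0.835), and *Tbx6* ranked 6th. Without the 2 farthest embryos these r values were 0.651 to 0.762. For *Mesp1* the nearest were *Bvht* (0.709), *Gadd45b* (0.707) and *Ccdc159* (0.703), and for *Pcdh8* *Arg1* (0.815), *Synm* (0.753) and *Gm15063* (0.748). Without the 2 embryos farthest out in the member, r was 0.541 to 0.695 for these. The nearest genes of *Mesp2* were *Cdca5*, *Eef1d* and *Psmc4*, of *Ripply1* *Birc3*, *Dffa* and *Tspan9*, and of *Ripply2* *Gm10614*, *Itga9* and *E230014E18Rik* (r from 0.705 to 0.796), where most embryos had few counts. Without the 2 farthest embryos r was 0.588 to 0.794 for these, higher than before for the genes of *Ripply1* and lower for the others. The genes of each trio were picked from all genes as the closest, so these values are descriptions only.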

How the data were processed

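RNA-seq libraries were prepared from tailbud RNA with TruSeq stranded or non-stranded kits (which library had which kit is not given in the sources used here) and, per the labels, trimmed with Trim Galore 0.4.4 and aligned with HISAT2 2.0.5 to GRCm38.p6. The authors deposited raw counts per gene from SeqMonk. From the 35591 rows, 49 with a repeated identifier were dropped. A table of log2 RPKM values of Hox genes and a list of differentially expressed genes with the authors' p-values, false discovery rates and fold changes were not used.

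Counts were filtered with filterByExpr (minimum count 10), scaled by TMM and fitted with edgeR 4.0.16 in R 4.3.3 (quasi-likelihood test, terms for sex and for somite number, neither within single stages, Benjamini-Hochberg threshold 0.05), with DESeq2 1.42.0 as an alternative. The procedure was tested on data simulated with the same dispersion for every gene, which does not cover the uneven spread of the rare members. CPM used TMM factors and RPKM the exonic lengths of GENCODE. Correlations used log2 CPM (prior count 2) minus group means, with 100000 permutations within groups. Each library was 1 embryo, and the tests treated embryos as independent units. Same-numbered replicates were not treated as pairs, since the labels give only a number. Deviations from the group mean correlated above 0.1 in 4 of 16 (r from −0.27 to 0.54). With groups this small, that check cannot exclude a shared litter or batch. Named genes were all 7 members, at most 3 genes per list and direction with the smallest adjusted p among those called, and the 3 genes nearest to each member by r. Members and lists were chosen with earlier results of these data known.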

Additional observations from a re-analysis of the deposited data

Results flagged for a closer look

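Groups of 4 embryos (Smchd1wt at 6, 7 and 10 somites, Smchd1matΔ at 6) were examined for each of the 7 members, 28 sets of values. In 5 sets an embryo lay far from the others by Dixon's criterion. The sets share embryos, and the criterion's rate of about 1 in 20 assumes normal values. That rate does not apply to counts this low. *Mesp1* was at 0.546 CPM (9 counts) in Smchd1wt replicate 3 at 10 somites, where the next embryo had 0.0683 CPM. *Mesp2* was at 0.548 CPM (7 counts) in Smchd1wt replicate 1 at 6 somites, where the others had 0. *Ripply1* was at 1.77 CPM (15 counts) in Smchd1wt replicate 1 at 10 somites, where the next had 0.542 CPM. This is the embryo lowest in *Tbx6* and *Msgn1*. *Ripply2* was at 0.875 CPM (12 counts) in Smchd1matΔ replicate 2 at 6 somites, where the next had 0.0934 CPM, and *Pcdh8* at 0.650 CPM (5 counts) in Smchd1wt replicate 2 at 6 somites, where the next had 0.166 CPM. All 5 were in rare members, and none in *Tbx6* or *Msgn1*.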

How the results depend on the processing

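The *Mesp1* decrease in Smchd1wt embryos kept its direction and its call under every alternative tried, from 0.71 to 0.81 on the log2 scale per somite with other size factors, no filter on low counts, no sex term, DESeq2 or females alone. Of 179 values of members recomputed under other settings, 169 kept their direction and their side of the threshold, 9 changed sign and 1 gained a call. Of 148 counts of called genes per list, 13 moved by over 1.5 times. Without the pair rich in ribosomal RNA, *Ripply1* was −0.16 for genotype over all stages and −0.47 at 6 to 8 somites, *Mesp1* was 0.016 at 6 to 8 somites, and the *Msgn1* slope in Smchd1matΔ embryos was −0.012. Without the sex term *Mesp1* was 0.073 at 6 to 8 somites and *Tbx6* −0.017 at 9 to 11. Among females alone the Smchd1wt slopes of *Tbx6* and *Msgn1* were 0.026 and 0.027. Without the filter 1 member was called at single stages (*Msgn1* at 8 somites), and without the 2 shallowest libraries 2 of the 4 correlations passed (not *Msgn1* with *Axin2* or *Pcdh8* with *Meox1*).

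Same-numbered embryos shared only a number. With the number as a block no member call changed, *Pcdh8* was 1.26 over all stages and 2.75 at 6 to 8 somites, and *Ripply1* at 9 to 11 somites was 0.016.

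Leaving out 1 embryo at a time gave, for genotype, *Ripply1* −0.21 to 0.19 over all stages, −0.58 to 0.30 at 6 to 8 and −0.47 to 0.29 at 9 to 11 somites, *Mesp1* −0.24 to 0.18 at 6 to 8 and *Tbx6* −0.15 to 0.13 at 9 to 11 somites. Slopes were −0.028 to 0.018 for *Tbx6* and −0.025 to 0.019 for *Msgn1* in Smchd1wt, and −0.046 to 0.0028, −0.0093 to 0.039 and −0.060 to 0.17 for *Tbx6*, *Msgn1* and *Ripply1* in Smchd1matΔ embryos. Differences in slope were −0.039 to 0.019 for *Tbx6* and −0.20 to 0.045 for *Ripply1*. The cause was not tested.

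Over all genes, calls at 6 to 8 somites went from 1 to 39 without the filter, 37 by DESeq2 and 0 with the block, and calls for the slope difference from 0 to 39 without the filter. Calls over all stages went from 2 to 1 with the block or females alone. The slope had 1006 calls in Smchd1wt embryos (1843 among females) and 475 in Smchd1matΔ embryos (308 without the pair, 1127 by DESeq2). Depth limits the 5 rare members, each of which had 0 counts in 5 to 18 of 37 embryos.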
